A study of Mus musculus with 4 samples.

Results

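Helper lineage transcription factors were read in RNA-seq libraries of stimulated splenic CD4+ T cells. The set held 9 genes, namely Tbx21, Gata3, Bcl6, Foxp3, Ikzf2, Eomes, Prdm1, Maf and Runx3, which were found by their symbols among the 16142 genes of the expression table. All 9 were in the table. There were 2 libraries from WT B6 mice and 2 from Cd4CreERT2LSL-R111Afl/fl mice, called R111A here. R111A is a form of the RNA-binding protein Regnase-1 (encoded by Zc3h12a) that resists cleavage by the paracaspase MALT1. It is expressed with EGFP from a CAG-driven transgene once Cre, made under the control of Cd4 and activated by tamoxifen (75 mg/kg for 5 days), has removed a stop cassette. The labels of the WT libraries carry the same tamoxifen protocol, and WT controls treated with tamoxifen were used in other assays of the study. CD4+ T cells were enriched by magnetic removal of other cells and sorted by flow cytometry, and the study gated on GFP in mice with a GFP reporter, but the gates used for these libraries are not stated. The sorted cells then received antibodies to CD3 (at 5 µg/mL) and to CD28 (at 1 µg/mL) for 12 h. Young adult mice of both sexes were used in the study unless it says otherwise. The exact age and the sex behind each library and the number of mice per library are not given in the sources used here, so p-values measure the spread between these libraries, which may be technical.

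After antigen contact, a naive CD4+ T cell can take on one of several helper fates, and each fate is tied to a transcription factor that turns on its genes and restrains those of other fates. T-bet, the product of Tbx21, drives the Th1 fate and its cytokine IFN-γ, and GATA3 drives the Th2 fate with IL-4 and IL-13. Bcl6 is a repressor needed by follicular helper (Tfh) cells, and Blimp-1, the product of Prdm1, opposes it. Foxp3 defines regulatory T cells (Tregs), many of which also carry Helios, the product of Ikzf2. Eomes is a relative of T-bet best known from CD8+ T cells and NK cells, c-Maf (Maf) promotes IL-4, IL-21 and IL-10, and Runx3 acts with T-bet in Th1 cells and silences Cd4 in CD8+ T cells.

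In R111A cells the order of these factors was rearranged. Tbx21 was the most abundant member in WT cells and Bcl6 in R111A cells. Tbx21 and Foxp3 were lower in R111A cells and Bcl6 and Eomes were higher, each by more than 2-fold. Gata3 was lower by less than that, and Ikzf2, Maf and Runx3 did not pass the test. Values are FPKM, which are reads scaled to the length of the gene and the size of the library, so that levels can be compared between genes. Changes are differences of log2(FPKM + 1), R111A minus WT, a scale on which the change of genes with low values is understated. The test was limma over the 9831 genes whose mean reached 1 FPKM, with Benjamini-Hochberg adjustment.

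By the adjusted p alone (under 0.05), 2 of the 8 members tested were higher and 3 were lower in R111A cells, where 21.2% of all genes tested were higher and 32.1% were lower. With a 2-fold change required as well, 2 members were higher and 2 were lower, against 8.52% and 8.34% of all genes. Prdm1 had a mean below 1 FPKM and was not tested. Eomes reached that mean only through R111A, which favours a higher call. With no filter Eomes passed (adjusted p = 0.0323 from limma) and Gata3 did not (adjusted p = 0.0762 from limma). In that fit 11.8% of all genes were higher and 13.4% were lower. The median change of the 8 members was -0.39, and that of all genes tested was -0.12. The smallest two-sided p of an exact permutation test is 0.333 in a design of this size, and each adjusted p therefore rests on limma's model across genes.

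**Figure D1:**
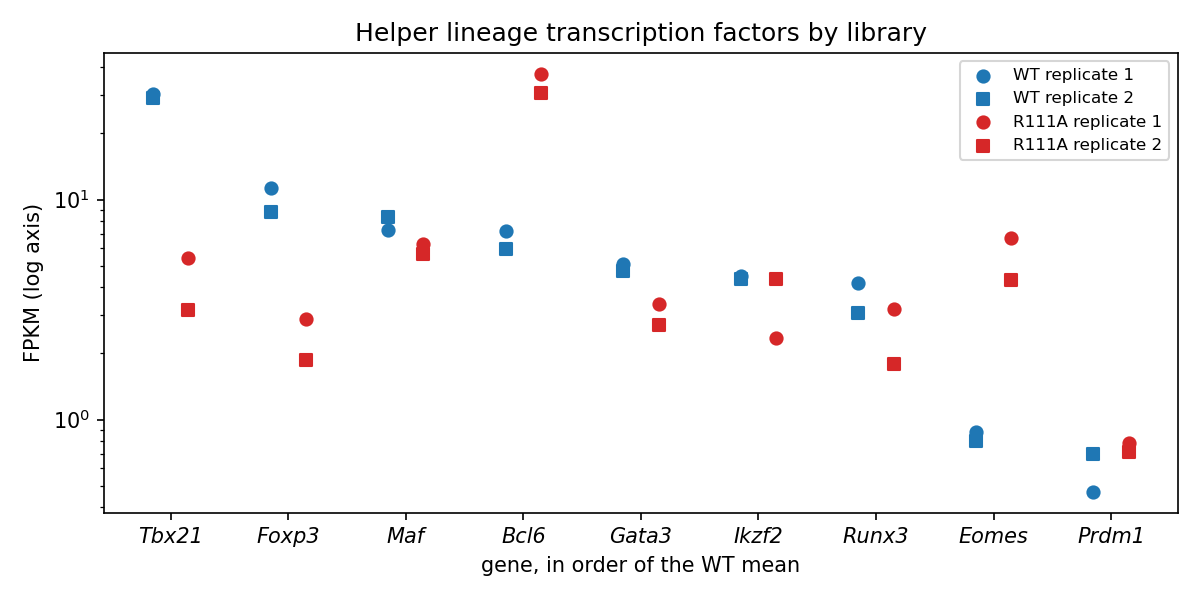
FPKM (log axis) of the 9 genes in each library, in order of the WT mean; blue points are the 2 WT libraries and red points the 2 R111A libraries. Tbx21 and Foxp3 lie lower in R111A, Bcl6 and Eomes lie higher, and the groups overlap for Ikzf2 and Runx3.

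The labels were checked on Zc3h12a (NCBI gene 230738), which was listed at 17.0 and 15.7 FPKM in WT replicates 1 and 2 and at 196.3 and 130.9 FPKM in R111A replicates 1 and 2. Both R111A libraries stood far above both WT libraries. The T cell markers Cd3e, Cd3d, Cd3g, Cd4, Cd28 and Lck summed to 1445 FPKM in each WT library and to 1180 and 1127 FPKM in R111A, with Cd3g the most abundant. Cd8a was at or below 0.20 FPKM in every library. Cd4 itself was listed at 157.5 and 131.3 FPKM in WT against 70.7 and 51.4 FPKM in R111A (log2 fold change -1.24, adjusted p = 0.000568 from limma), and with no filter on low values it did not pass (adjusted p = 0.0514). Cd4 was named because of its role as the defining marker and was chosen after its values were seen. Of the 6 markers tested, 1 was higher and 3 were lower (1 and 1 with no filter, 0 and 5 after rescaling to TPM). The higher marker was Cd3d, at 205.0 and 213.7 FPKM in WT against 275.2 and 266.9 FPKM in R111A (log2 fold change 0.37, adjusted p = 0.0294 from limma). Cd3e did not pass (-0.08, adjusted p = 0.688 from limma).

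Tbx21 (NCBI gene 57765, on the minus strand of chromosome 11 from 97098007 to 97115331 in GRCm38) was listed at 30.3 and 29.1 FPKM in WT replicates 1 and 2 and at 5.44 and 3.16 FPKM in R111A replicates 1 and 2. Both R111A libraries were below both WT libraries, and the gap between groups was many times the gap within them. The mean was 29.7 ± 0.877 FPKM in WT and 4.30 ± 1.61 FPKM in R111A (SD, n = 2 each), a ratio of 6.91 in favour of WT. The log2 fold change was -2.57 (standard error 0.20, adjusted p = 3e-05 from limma), and only 0.214% of the genes tested had a lower value. In bulk RNA, fewer cells that express a gene and less of its RNA per cell cannot be told apart.

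Eomes (NCBI gene 13813, on the plus strand of chromosome 9 from 118478186 to 118486132) showed the opposite direction. It was listed at 0.88 and 0.80 FPKM in WT against 6.68 and 4.32 FPKM in R111A. Both WT libraries were below 1 FPKM and both R111A libraries were above them. The log2 fold change was 1.80 with a standard error of 0.19 (limma, adjusted p = 0.000112), and 2 of 2 R111A libraries were higher. Its mean reached 1 FPKM only through R111A, and with no filter the same change had an adjusted p of 0.0323. Tbx21 divided by Eomes was 34.5 and 36.3 in the WT libraries and 0.814 and 0.731 in the R111A libraries. Within each library, Tbx21 was above Eomes in WT and below it in R111A, although the values of the 2 genes overlapped between the R111A libraries. With a pseudocount of 5 FPKM, which weighs on low values, the change of Eomes was 0.84 and so under 2-fold (limma, adjusted p = 0.000303).

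Bcl6 (NCBI gene 12053, on the minus strand of chromosome 16 from 23965050 to 23988866) was listed at 7.20 and 5.95 FPKM in WT against 37.3 and 30.5 FPKM in R111A. Both R111A libraries were above both WT libraries. The mean was 6.58 ± 0.884 FPKM in WT and 33.9 ± 4.82 FPKM in R111A (SD, n = 2 each), a ratio of 5.15. Its log2 fold change was 2.20 (standard error 0.16, adjusted p = 2.03e-05 from limma), and 98.6% of the genes tested had a lower value. Tbx21 divided by Bcl6 was 4.21 and 4.89 in WT and 0.146 and 0.104 in R111A.

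Foxp3 (NCBI gene 20371, on the plus strand of chromosome X from 7579676 to 7595243) was listed at 11.3 and 8.78 FPKM in WT against 2.86 and 1.86 FPKM in R111A. Both R111A libraries were below both WT libraries. The mean was 10.0 ± 1.79 FPKM in WT and 2.36 ± 0.707 FPKM in R111A (SD, n = 2 each), a ratio of 4.26 in favour of WT. Foxp3 thus changed by -1.72 on the log2 scale (limma, standard error 0.19, adjusted p = 0.000149). Whether the sorted cells were also gated on CD25, a surface marker of Tregs, is not stated for these libraries.

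Of the 9 members, 7 had a promoter in the RefSeq table of GRCm38.p6. The 250 bases before the outermost start in that table are shown, 5′ to 3′ on the strand of the gene, for the 4 members that passed both thresholds. They lie at chr11:97115332-97115581 (minus strand, Tbx21), chr9:118477939-118478188 (plus strand, Eomes), chr16:23988853-23989102 (minus strand, Bcl6) and chrX:7579426-7579675 (plus strand, Foxp3). For Eomes and Bcl6 that start lies a few bases inside the span of the gene, so the stretch shown runs slightly into it. Capitals mark a match to any of 6 motifs searched on both strands.

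Tbx21: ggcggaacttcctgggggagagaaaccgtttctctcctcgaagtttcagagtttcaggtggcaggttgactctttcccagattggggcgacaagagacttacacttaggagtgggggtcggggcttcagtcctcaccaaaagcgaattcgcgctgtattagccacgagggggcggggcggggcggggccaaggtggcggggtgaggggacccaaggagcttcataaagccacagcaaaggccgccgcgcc

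Eomes: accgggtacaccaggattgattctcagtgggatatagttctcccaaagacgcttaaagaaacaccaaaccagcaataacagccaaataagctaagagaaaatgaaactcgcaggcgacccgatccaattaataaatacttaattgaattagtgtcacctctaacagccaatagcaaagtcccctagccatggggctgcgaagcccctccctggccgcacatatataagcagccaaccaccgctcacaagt

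Bcl6: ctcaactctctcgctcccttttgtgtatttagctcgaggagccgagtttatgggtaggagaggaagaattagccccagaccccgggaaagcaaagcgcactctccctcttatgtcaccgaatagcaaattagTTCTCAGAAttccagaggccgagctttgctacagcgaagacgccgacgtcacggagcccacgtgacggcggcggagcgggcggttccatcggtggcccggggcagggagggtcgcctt

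Foxp3: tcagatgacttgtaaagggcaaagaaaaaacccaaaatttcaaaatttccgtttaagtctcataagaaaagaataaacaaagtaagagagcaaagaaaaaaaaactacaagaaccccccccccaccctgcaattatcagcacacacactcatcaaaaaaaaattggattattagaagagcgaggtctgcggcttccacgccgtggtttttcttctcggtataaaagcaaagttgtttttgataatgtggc

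The motifs were a STAT-type motif (TTCNNNGAA), found in 7.14% of the 27025 promoters of the same length, a forkhead-type motif (TGTTTAC, 3.06%) and an AP-1-type motif (TGANTCA, 6.85%). The others were a RUNX-type motif (TGNGGT, 40.0%), a T-box-type motif (AGGTGTGA, 1.14%) and a GATA-type motif (AGATAA, 10.2%). Among the promoters of Tbx21, Eomes, Bcl6 and Foxp3, the only match was 1 STAT-type motif in that of Bcl6, which starts 118 bases before that start. G and C made up 60.8% of the bases for Tbx21, 58.4% for Bcl6, 46.4% for Eomes and 37.6% for Foxp3, and the median over all promoters was 52.0%. A match is a run of letters and not a binding site, and the motifs were chosen with the values of the members known.

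Gata3 (NCBI gene 14462, on the minus strand of chromosome 2 from 9857078 to 9887953) was listed at 5.08 and 4.76 FPKM in WT against 3.36 and 2.69 FPKM in R111A. The groups did not overlap, and the gap was small beside that of Tbx21. The log2 fold change was -0.56 (standard error 0.15, adjusted p = 0.0128 from limma), or -0.45 relative to the median of all genes. The call was lost without WT replicate 1 (-0.52) and without WT replicate 2 (-0.60), each with a standard error of 0.27. It was also lost with no filter on low values (adjusted p = 0.0762 from limma). Tbx21 divided by Gata3 fell from 5.97 and 6.11 in the WT libraries to 1.62 and 1.17 in the R111A libraries. Tbx21 was thus still the higher of the pair within each library, although the values of the 2 genes overlapped between the R111A libraries.

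Ikzf2 (NCBI gene 22779) was listed at 4.50 and 4.34 FPKM in WT against 2.35 and 4.36 FPKM in R111A. R111A replicate 2 lay between the WT libraries and R111A replicate 1 lay below them. Its log2 fold change was -0.35 (standard error 0.21, adjusted p = 0.192 from limma). It was -0.69 without R111A replicate 2 (adjusted p = 0.00261) and -0.016 without R111A replicate 1 (adjusted p = 0.906), so 1 library set the value. Foxp3 divided by Ikzf2 was 2.51 and 2.02 in WT and 1.22 and 0.427 in R111A.

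Maf (NCBI gene 17132) was listed at 7.31 and 8.31 FPKM in WT against 6.30 and 5.63 FPKM in R111A. The groups did not overlap, but the log2 fold change of -0.34 did not pass the test (standard error 0.15, adjusted p = 0.0801 from limma), and it passed without R111A replicate 1 (-0.41, adjusted p = 0.0275). Runx3 (NCBI gene 12399) was listed at 4.17 and 3.04 FPKM in WT against 3.19 and 1.79 FPKM in R111A. The groups overlapped, and the log2 fold change of -0.42 did not pass the test (standard error 0.22, adjusted p = 0.132 from limma). Without R111A replicate 1 the value for Runx3 was -0.71 (adjusted p = 0.0156), and without R111A replicate 2 it was -0.13 (adjusted p = 0.542). Prdm1 (NCBI gene 12142) was listed at 0.47 and 0.70 FPKM in WT against 0.78 and 0.71 FPKM in R111A. These Prdm1 values are low in every library, and with no filter the log2 fold change was 0.14 (adjusted p = 0.376 from limma).

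**Figure D2:**
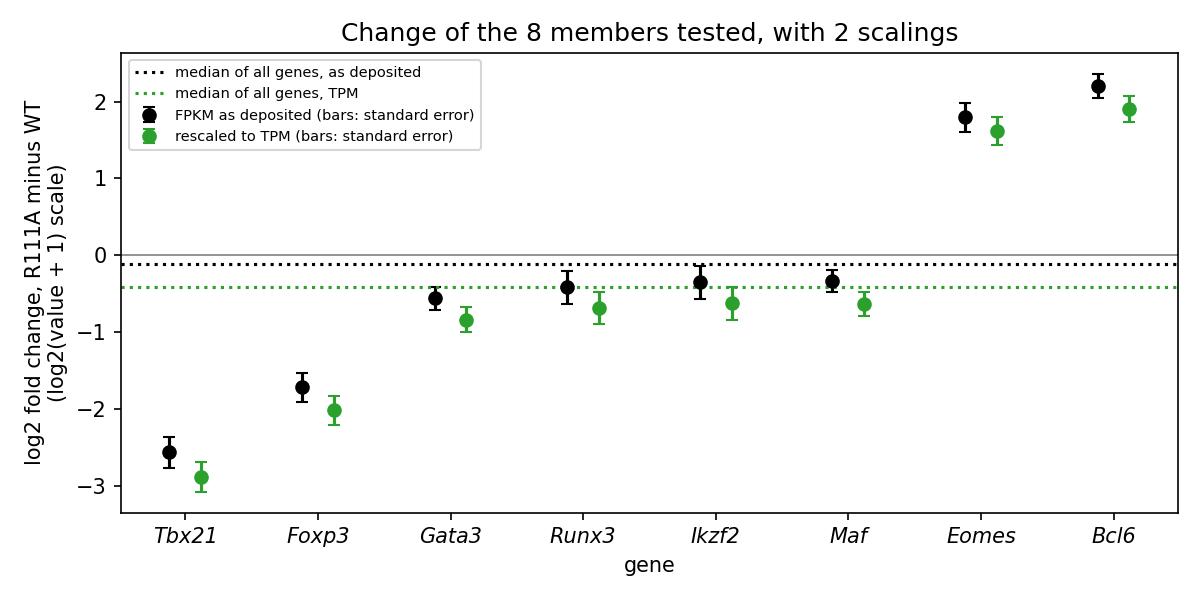
Log2 fold change (R111A minus WT, log2(value + 1) scale) of the 8 members tested, with standard errors, from FPKM as deposited (black) and rescaled to TPM (green); dotted lines are the medians of all genes. Bcl6 and Eomes stay above both medians and Tbx21 and Foxp3 below them with both scalings.

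Summed over all genes, FPKM came to 801475 and 836143 in WT and to 1053551 and 1012215 in R111A, so scaling matters for small changes. After rescaling to TPM (each library set to the same sum), the median log2 fold change of all genes moved from -0.12 to -0.42, and the share of higher genes among the 2-fold calls moved from 50.5% to 24.8%. Relative to that median, the TPM values were -2.47 for Tbx21, 2.32 for Bcl6, -1.60 for Foxp3 and 2.04 for Eomes. On the deposited scale the same differences from the median were -2.45, 2.32, -1.61 and 1.91, so these 4 changes hardly moved. Maf, Runx3 and Ikzf2 passed the adjusted p after rescaling to TPM, at -0.22, -0.27 and -0.21 relative to the median of all genes.

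Among the levels in WT, Tbx21 came first, followed by Foxp3, Maf, Bcl6, Gata3, Ikzf2, Runx3, Eomes and Prdm1. No neighbours in that order overlapped between the WT libraries, although Maf and Bcl6 came as close as 7.31 against 7.20 FPKM. Tbx21 made up 42.6% and 44.2% of the summed FPKM of the 9 genes in WT and 7.97% and 5.75% in R111A. Bcl6 made up 10.1% and 9.05% in WT and 54.6% and 55.4% in R111A. The sum itself was 71.2 and 65.8 FPKM in WT against 68.2 and 55.0 FPKM in R111A. In R111A, Bcl6 came first. The libraries of Maf, Eomes, Tbx21, Ikzf2, Gata3, Runx3 and Foxp3 overlapped between neighbours in that order, so the order of neighbours was not resolved. Some genes further apart did not overlap. Maf (5.63 FPKM or more) was above Tbx21 (5.44 FPKM or less), Ikzf2, Gata3, Runx3 and Foxp3 in both R111A libraries.

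**Figure D3:**
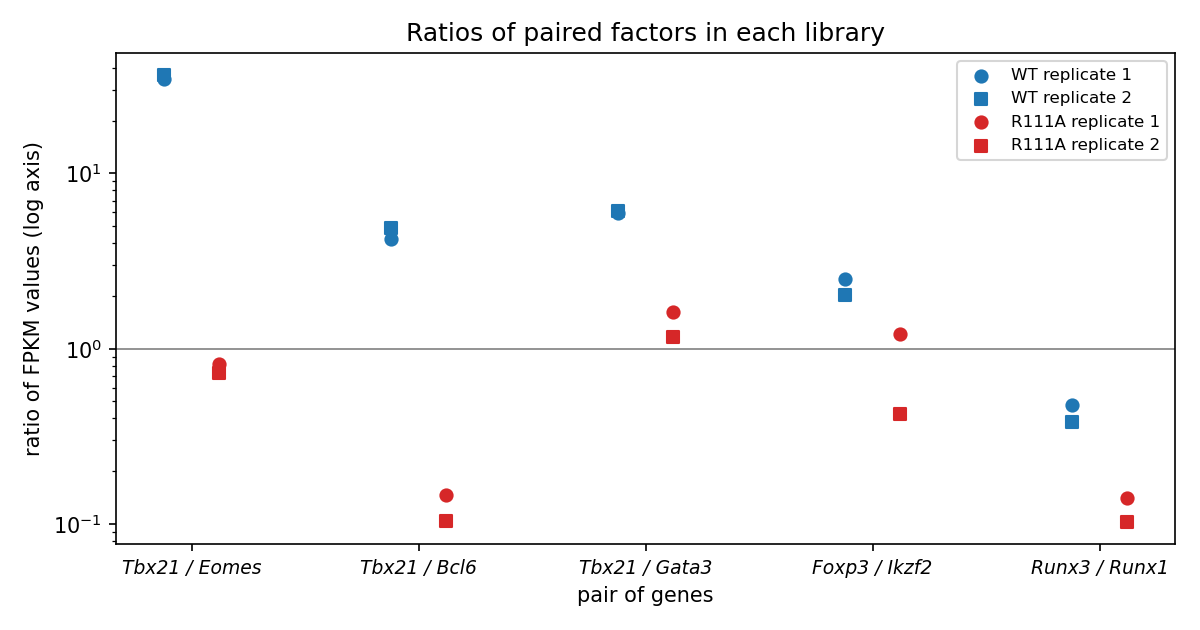
Ratio of the FPKM values of 5 pairs of genes (log axis) in each library; the grey line marks equal levels. Tbx21 is above Eomes and Bcl6 in both WT libraries and below them in both R111A libraries, and it stays above Gata3 in all 4.

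The genes of each helper programme were read next, and the counts of each list stand beside the 21.2% of all genes tested that were higher and the 32.1% that were lower (11.8% and 13.4% with no filter). A gene that reached a mean of 1 FPKM through 1 group alone is favoured for a call in that direction, so such genes are named beside the calls they add to. Some genes stand in more than 1 list, so the counts of different lists are not separate results. In the Th1 list, 4 of 13 genes tested were higher, 4 were lower and 5 did not pass, and the median change was 0.13. Il12rb1, a chain of the IL-12 receptor, was listed at 43.9 and 41.3 FPKM in WT against 7.72 and 5.97 FPKM in R111A. Ifng, which encodes IFN-γ and was named for that role after its values were seen, was also lower, at 17.3 and 16.1 FPKM in WT against 7.20 and 7.30 FPKM in R111A (log2 fold change -1.10, adjusted p = 0.000272 from limma). Cxcr3, a chemokine receptor that T-bet is known to induce, went the other way, at 3.89 and 4.09 FPKM in WT against 13.3 and 12.6 FPKM in R111A. Il18r1, a chain of the IL-18 receptor, was listed at 1.49 and 1.65 FPKM in WT against 4.58 and 5.86 FPKM in R111A. Ifngr1, the ligand-binding chain of the IFN-γ receptor, was listed at 19.1 and 19.2 FPKM in WT against 71.8 and 57.2 FPKM in R111A. The Th1 median was -0.12 without R111A replicate 2, -0.18 when a mean of 5 FPKM was required, -0.19 after rescaling to TPM, 0 with no filter and 0.22 under median-of-ratios scaling, so its sign was not stable.

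In the Th2 list, 0 of 9 genes tested were higher and 6 were lower (limma, adjusted p under 0.05), also at an unadjusted p under 0.05, with a median of -0.91. Il4 was listed at 10.2 and 15.5 FPKM in WT against 1.42 and 0.70 FPKM in R111A, and Il13 at 6.01 and 5.98 FPKM in WT against 0.13 and 0.15 FPKM in R111A. These are the signature cytokines of Th2 cells, and their changes were larger than that of Gata3. Ccr4, a chemokine receptor of Th2 cells and Tregs, was listed at 44.7 and 37.2 FPKM in WT against 5.77 and 6.45 FPKM in R111A. Il10 was listed at 3.51 and 4.76 FPKM in WT against 0.29 and 0.26 FPKM in R111A. In the Th2 list 1 gene was higher without R111A replicate 1 and 1 with no filter, where the median of 13 genes was -0.26. Il13 and Il10 reached 1 FPKM only through WT, and both passed with no filter as well (adjusted p = 0.0113 and 0.0174).

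In the Th17 list, 1 of 8 genes tested was higher and 5 were lower, with a median of -0.63. Irf4, a factor induced by T cell receptor signals, was listed at 426.1 and 367.7 FPKM in WT against 117.2 and 134.6 FPKM in R111A. Batf, its partner at AP-1 sites, was listed at 65.1 and 58.7 FPKM in WT against 22.1 and 21.8 FPKM in R111A. Both serve several helper fates, and both were lower in R111A. Rora was the gene that was higher, at 1.01 and 0.89 FPKM in WT against 2.36 and 3.92 FPKM in R111A. Il17a was low throughout, at 1.16 and 2.03 FPKM in WT against 0.27 and 0.76 FPKM in R111A, and its call was lost without R111A replicate 1 (adjusted p = 0.0779 from limma). Genes of the Th17 list that were lower numbered 2 of 5 without WT replicate 2 (median -0.39), 3 of 8 without R111A replicate 1, 3 of 13 with no filter and 2 of 4 when a mean of 5 FPKM was required. Rora reached a mean of 1 FPKM only through R111A, and Il17a, Il17f and Ccr6, which are 3 of the 5 lower genes, only through WT, so this count is partly set by the filter. With no filter these 4 did not pass (adjusted p = 0.0753, 0.168, 0.143 and 0.196), while the list median was -1.11 and -0.26 with pseudocounts of 0.1 and 5 FPKM.

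In the Tfh list, which Bcl6 heads by function, 4 of 12 genes tested were higher and 7 were lower, with a median of -0.47. Pou2af1, a coactivator of octamer-binding factors, was listed at 29.0 and 27.6 FPKM in WT against 74.4 and 71.4 FPKM in R111A. Tox2 was listed at 0.61 and 0.53 FPKM in WT against 2.89 and 1.77 FPKM in R111A, reached 1 FPKM only through R111A and did not pass with no filter (adjusted p = 0.0607). Cd200 and Btla, both surface proteins, went the other way. Cd200 was listed at 121.5 and 115.0 FPKM in WT against 34.7 and 39.4 FPKM in R111A, and Btla at 112.3 and 118.4 FPKM in WT against 42.0 and 67.0 FPKM in R111A. Btla did not pass with no filter (adjusted p = 0.0923 from limma). The count of 7 lower genes in the Tfh list became 3 without WT replicate 1, 4 without WT replicate 2, 4 with quantile normalization and 4 with no filter, where 2 were higher. The Tfh median was -0.29 without R111A replicate 1, -0.28 with quantile normalization and -0.80 after rescaling to TPM.

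In the Treg list, 3 of 13 genes tested were higher and 7 were lower, with a median of -0.73. The 3 higher calls were lost without WT replicate 1 and after rescaling to TPM. When a mean of 5 FPKM was required, 4 of 8 genes were lower with a median of -0.42, and with no filter the median was -0.33. Il10, given above, is among the 7 lower genes. It reached 1 FPKM only through WT and passed with no filter as well (adjusted p = 0.0174 from limma). Ctla4, an inhibitory receptor, was listed at 38.9 and 44.3 FPKM in WT against 8.94 and 12.0 FPKM in R111A. Tnfrsf18, which encodes GITR, was listed at 192.5 and 210.8 FPKM in WT against 57.4 and 62.4 FPKM in R111A. Lrrc32, which encodes the surface anchor of latent TGF-β, was listed at 8.19 and 7.13 FPKM in WT against 2.89 and 1.72 FPKM in R111A. Il2ra, the most abundant of the Treg markers by the mean of the 4 libraries, was at 140.2 and 136.1 FPKM in WT against 127.3 and 128.6 FPKM in R111A, and it did not pass the test (adjusted p = 0.467 from limma), although it was lower after rescaling to TPM (-0.44, adjusted p = 0.011). Activated T cells without Foxp3 also express Il2ra, Ctla4 and Tnfrsf18. All 15 genes of the Treg list summed to 938.1 and 980.0 FPKM in WT and to 969.6 and 895.3 FPKM in R111A, with Capg the most abundant. Capg (334.2 and 365.5 FPKM in WT against 537.1 and 512.0 FPKM in R111A) and Nt5e (24.3 and 26.6 against 35.3 and 45.9 FPKM) were among the 3 higher genes. The 9 Treg markers other than Foxp3 and Ikzf2 summed to 492.4 and 502.6 FPKM in WT and to 271.3 and 266.1 FPKM in R111A. Of the 8 tested, 5 were lower and 1 was higher. That higher marker, Ikzf4, did not pass without WT replicate 1 (adjusted p = 0.0955), without WT replicate 2 (adjusted p = 0.164), with no filter (adjusted p = 0.153) or after rescaling to TPM (adjusted p = 0.201). With no filter 1 of the 9 Treg markers was higher and 4 were lower. The higher one there was Itgae, at 0.61 and 0.53 FPKM in WT against 1.12 and 1.27 FPKM in R111A (adjusted p = 0.0283 from limma). The part of Treg number in the lower Foxp3 was not tested.

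In the cytotoxic list, 5 of 10 genes tested were higher and 3 were lower, with a median of 0.75. Of the 5 higher genes, Gzma, Prf1 and Klrd1 reached 1 FPKM only through R111A, and of the lower ones Gzmb only through WT, so the count and the median are partly set by the filter. With no filter 5 of 11 were higher and 2 were lower, and of these 4 genes only Prf1 did not pass (adjusted p = 0.0596). Klrd1, which encodes CD94, was listed at 1.00 and 0.40 FPKM in WT against 12.1 and 13.6 FPKM in R111A. Crtam, a surface protein of activated cytotoxic cells, was listed at 29.0 and 31.7 FPKM in WT against 82.4 and 99.6 FPKM in R111A. Gzmb, which encodes granzyme B, was listed at 7.07 and 6.67 FPKM in WT against 0.10 and 0.77 FPKM in R111A, and Nkg7 at 19.3 and 22.8 FPKM in WT against 4.43 and 4.14 FPKM in R111A. The median of the cytotoxic list was 0.11 without R111A replicate 1, 0.26 after rescaling to TPM and 0.37 with a pseudocount of 5 FPKM, and 3 of 7 genes were higher when a mean of 5 FPKM was required.

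Eomes and Klrd1 are also expressed by NK cells and CD8+ T cells, so markers of other cells were read beside them. The 5 NK cell markers summed to 3.09 and 0.65 FPKM in WT and to 2.25 and 2.66 FPKM in R111A, with Tyrobp the most abundant. Of these 5 markers, only Tyrobp reached a mean of 1 FPKM, at 2.94 and 0.63 FPKM in WT against 0.85 and 0.97 FPKM in R111A. It did not pass (-0.41, adjusted p = 0.333 from limma) but was lower without WT replicate 2 (-1.05, adjusted p = 0.000144). The other 4 were higher in both R111A libraries than in either WT library. With no filter, Klre1 (0.10 and 0 FPKM in WT against 0.78 and 1.10 FPKM in R111A, adjusted p = 0.0332), Klra8 (0 in both WT libraries against 0.22 and 0.33 FPKM, adjusted p = 0.04) and Klrb1c (0 and 0.02 FPKM against 0.10 and 0.14 FPKM, adjusted p = 0.0468) passed and Ncr1 did not (adjusted p = 0.193). The 3 that passed are low in every library, near or below 1 FPKM. The 2 CD8+ T cell markers summed to 7.31 and 6.76 FPKM in WT and to 3.88 and 4.46 FPKM in R111A, nearly all of it Cd8b1, and 1 of 1 tested was lower but did not pass without WT replicate 1 (adjusted p = 0.103). The 6 myeloid markers summed to 1.32 and 0.92 FPKM in WT and to 7.64 and 7.04 FPKM in R111A, with Fcer1g the most abundant, and 4 of 6 were higher with no filter, where 11.8% of all genes were. The 6 B cell markers summed to 2.15 and 1.01 FPKM in WT and to 5.21 and 4.54 FPKM in R111A, with Cd79a the most abundant, and with no filter Cd79a was higher and the other 5 did not pass. The markers of these 2 lists that reached a mean of 1 FPKM did so only through R111A, a filter that favours higher genes, so no count of those tested is given. The enrichment and the sort are meant to remove such cells, and their part in the higher Eomes was not tested.

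Among naive-state factors, 7 of 12 genes tested were higher and 2 were lower, with a median of 0.72. Il7r, the IL-7 receptor chain that falls on activation, was listed at 4.58 and 3.77 FPKM in WT against 43.6 and 37.5 FPKM in R111A. S1pr1, which guides exit from lymph nodes, was listed at 6.67 and 4.61 FPKM in WT against 43.2 and 30.8 FPKM in R111A. Klf2, a factor that drives S1pr1, was listed at 24.7 and 20.9 FPKM in WT against 100.2 and 41.5 FPKM in R111A. The log2 fold change of Klf2 moved from 1.47 to 0.84 without R111A replicate 1, and its call was lost with no filter (adjusted p = 0.165 from limma). Il7r, S1pr1 and Klf2 were each higher in both R111A libraries than in either WT library. The 2 lower calls of the list were lost without WT replicate 1 and without WT replicate 2, and 4 genes were lower without R111A replicate 1 and after rescaling to TPM (median 0.39). With no filter 4 were higher and 1 was lower, and 1 was lower after quantile normalization and under median-of-ratios scaling.

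**Figure D4:**
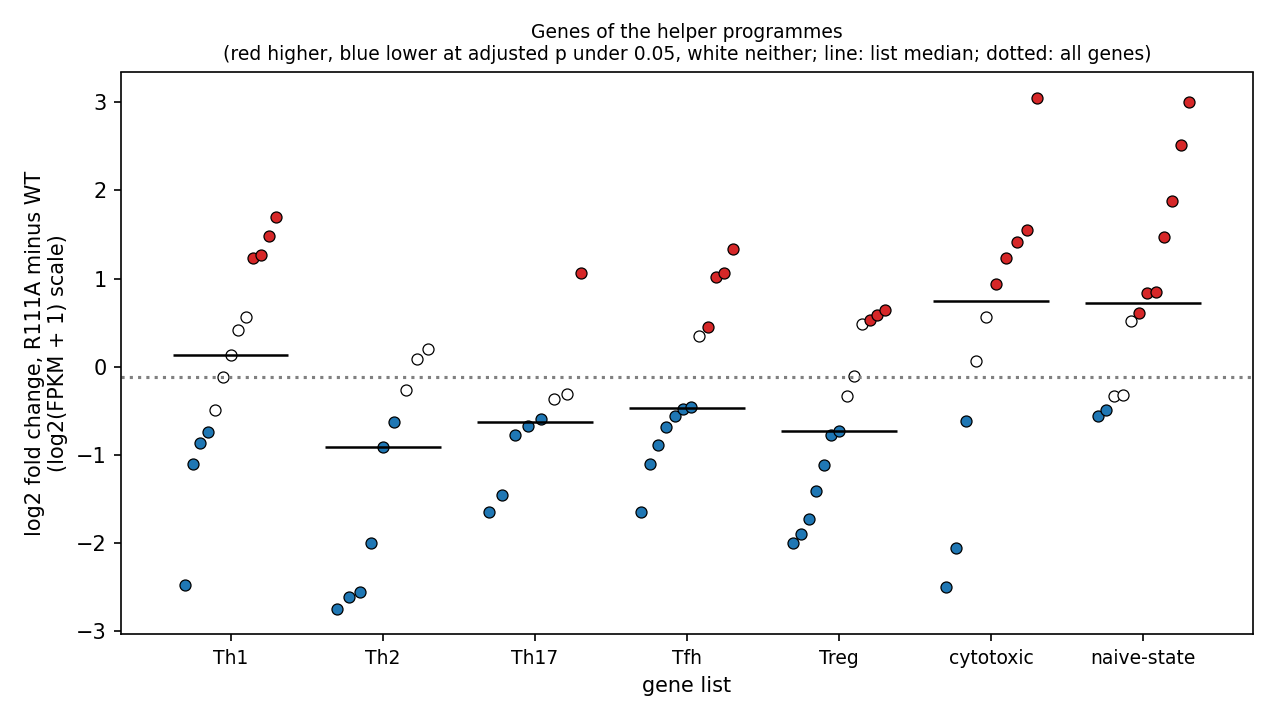
Log2 fold change (R111A minus WT, log2(FPKM + 1) scale) of each gene tested in 7 gene lists; red points were higher and blue points lower at an adjusted p under 0.05 from limma, black lines are list medians and the dotted line is the median of all genes. Each of the 7 lists holds genes on both sides of the dotted line.

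Partners and relatives of the members were read last. Among cofactors and antagonists, 3 of 20 genes tested were higher and 8 were lower, against 21.2% and 32.1% of all genes, with a median of -0.21. Both lower naive-state factors are among these 8, and Tcf7 is counted as higher in both lists. Without WT replicate 1 there were 3 lower (median -0.13), without WT replicate 2 there were 4, without R111A replicate 1 there were 12 (median -0.41), and without R111A replicate 2 there were 6 higher. With no filter 1 was higher and 3 were lower, with quantile normalization 5 were higher, and the median was -0.51 after rescaling to TPM and -0.13 both with no filter and under median-of-ratios scaling. Zbtb7b, which encodes ThPOK and opposes Runx3 in CD4+ T cells, was listed at 22.6 and 22.0 FPKM in WT against 9.73 and 7.19 FPKM in R111A. Zfpm1, a GATA cofactor also called FOG1, was listed at 18.5 and 17.3 FPKM in WT against 11.4 and 5.97 FPKM in R111A. Hic1 was listed at 1.01 and 1.03 FPKM in WT against 9.39 and 5.98 FPKM in R111A. Tcf7, which encodes TCF-1 and is known to promote Bcl6, was listed at 139.3 and 128.9 FPKM in WT against 308.8 and 185.3 FPKM in R111A (log2 fold change 0.83, adjusted p = 0.0116 from limma). The change of Tcf7 was 0.46 without R111A replicate 1, and on the TPM scale it was 0.50 (adjusted p = 0.0345 from limma). That of Zfpm1 moved from -1.02 to -0.61 without R111A replicate 2. With no filter neither gene passed (adjusted p = 0.173 for Tcf7 and 0.152 for Zfpm1, from limma).

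Runx1, the relative of Runx3 that prevails in naive CD4+ T cells, was listed at 8.69 and 7.97 FPKM in WT against 22.7 and 17.5 FPKM in R111A (log2 fold change 1.16, adjusted p = 0.000502 from limma). Runx3 divided by Runx1 was 0.480 and 0.381 in WT and 0.141 and 0.103 in R111A. Maff, a small Maf protein, was listed at 6.68 and 7.52 FPKM in WT against 30.7 and 26.1 FPKM in R111A. Mafk, another small Maf protein, went the other way, at 29.5 and 34.5 FPKM in WT against 25.3 and 20.7 FPKM in R111A (log2 fold change -0.46, adjusted p = 0.0336 from limma), so 1 of 3 tested in the family was higher and 1 was lower. The call for Mafk was lost without WT replicate 1 (adjusted p = 0.107), WT replicate 2 (0.356) or R111A replicate 2 (0.0539), after quantile normalization (0.0832), under median-of-ratios scaling (0.0805) and with no filter (0.142). Tbx6 was listed at 0.28 and 0.56 FPKM in WT against 2.85 and 2.26 FPKM in R111A, a low level in every library that reached 1 FPKM only through R111A and passed with no filter (adjusted p = 0.0298). Within the Ikaros family, 1 of 4 genes tested was higher and 2 were lower. Ikzf1 was lower, at 136.8 and 128.0 FPKM in WT against 79.0 and 75.6 FPKM in R111A. Ikzf3 was lower, at 70.8 and 61.5 FPKM in WT against 42.6 and 54.3 FPKM in R111A (adjusted p = 0.0393 from limma), but not without WT replicate 1 (0.341), WT replicate 2 (0.106) or R111A replicate 1 (0.0764), after quantile normalization (0.283), under median-of-ratios scaling (0.0804) or with no filter (0.173). Ikzf4 was higher, at 3.33 and 3.09 FPKM in WT against 5.95 and 4.29 FPKM in R111A (log2 fold change 0.53, adjusted p = 0.0275 from limma), with the losses of call given above. In the T-box family 1 of 2 other genes tested was higher, namely Tbx6, and in the Runx family Runx1 was the 1 other gene tested. With no filter, 3 of 8 other T-box genes (Tbx6, Tbx2 and Tbr1) and 2 of 2 other Runx genes (Runx1 and Runx2) were higher, against 11.8% of all genes. Tbx2 (0 and 0.02 FPKM in WT against 0.56 and 0.49 FPKM in R111A) and Tbr1 (0.03 and 0 against 0.21 and 0.20 FPKM) were below 1 FPKM in every library. Runx2 was also low, at 0.29 and 0.39 FPKM in WT against 1.52 and 1.49 FPKM in R111A. In the Foxp and GATA families 0 of 2 and 0 of 1 other genes tested passed an adjusted p of 0.05 in limma (1 and 0 at an unadjusted p under 0.05), and in the PRDM family 1 of 6 was higher and 1 was lower. All 3 of the Foxp and GATA genes were lower without R111A replicate 1 and after rescaling to TPM, and 1 Foxp gene was lower without R111A replicate 2. Both PRDM calls were lost without WT replicate 1 and without WT replicate 2, the higher one also with no filter and after rescaling to TPM, and 3 genes of that family were higher without R111A replicate 1.

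Likeness of pattern was measured as the distance between profiles of log2(FPKM + 1) over the 4 libraries, each centred on its own mean, among genes whose mean reached 5 FPKM. The genes closest to Tbx21 were Mettl26 (distance 0.131), Mcrip2 (0.178) and Irf8 (0.195), of 7647 compared. Those closest to Bcl6 were H2ac18 (0.0745), Crip2 (0.0771) and Sfn (0.131). Tubb5 (0.141), Coro1c (0.188) and Itgal (0.203) were closest to Foxp3, and Tob1 (0.108), Kdm6b (0.138) and Tecpr1 (0.139) to Eomes. With 4 libraries in 2 groups, such likeness is set mainly by the size of the group difference.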

How the data were processed

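Polyadenylated RNA of sorted CD4+ T cells was sequenced in 2 WT and 2 R111A libraries. The authors aligned reads to mm10 with Bowtie2 (2.4.4), estimated expression with RSEM (1.2.28) and deposited FPKM values for 16142 genes, of which 1694 were at 0 in all libraries. The authors called genes with DESeq2 on counts, which was not repeated because FPKM values are not counts. Read numbers are not known.

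The test was limma on log2(FPKM + 1) (version 3.58.1, R 4.3.3; lmFit and eBayes with trend, two-sided) for the 9831 genes whose mean reached 1 FPKM, with the 2-fold change and adjusted p of 0.05 that the study used. Tables and figures were made in python 3.11.15 with numpy 2.4.6, pandas 2.3.3 and matplotlib 3.10.9. The procedure was tested on simulated data under 2 models of the variance. The model was revised after early runs, and with variances of heavier tails than limma assumes the share of false calls was above the nominal level, so adjusted p-values may be too small.

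Alternatives were pseudocounts of 0.1 and 5 FPKM, no filter, a filter at 5 FPKM, TPM, median-of-ratios factors, quantile normalization, a replicate block, eBayes without trend or robust, and leaving out each library. The members and gene lists were chosen with earlier results of these data known. Genes named were the members, Zc3h12a, up to 4 genes per list with the largest change among those with an adjusted p under 0.05, partners past both thresholds, the most abundant markers and the genes most alike in pattern. The text gives those that bear on each statement, 1 gene that the rule takes is not reported here, and other markers named were chosen after their values were seen. Gene positions and promoters are from RefSeq (GRCm38.p6, the assembly of mm10), and a promoter was used for 7 members.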

Additional observations from a re-analysis of the deposited data

How the results depend on the processing

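Tbx21, Bcl6, Foxp3 and Eomes kept their direction in every alternative that tested them. In the alternatives with all 4 libraries they also kept an adjusted p under 0.05 in limma. With the replicate block, that p does not check the spread of each gene, as described below. With a pseudocount of 5 FPKM, 386 genes were higher and 402 lower by 2-fold, against 838 and 820. When a mean of 5 FPKM was required, 521 genes were higher, and 1 member was called higher because Eomes was not tested there. After rescaling to TPM, 1756 genes were lower by 2-fold and 51.8% of genes and 6 members were lower by the adjusted p, with log2 fold changes of -0.63 for Ikzf2 (adjusted p = 0.0205), -0.64 for Maf (adjusted p = 0.00367) and -0.68 for Runx3 (adjusted p = 0.0116). With no filter, Gata3 kept its value of -0.56 with an adjusted p of 0.0762. Quantile normalization turned the sign of Il2ra (0.13, adjusted p = 0.386), which passed only after rescaling to TPM (-0.44, adjusted p = 0.011). Except for the members not tested under a filter, the cause was not tested.

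Leaving out each library in turn assumes that the lone library of a group varies like the others. Without WT replicate 1, the standard errors of the members lay close together, from 0.26 to 0.29, against 0.15 to 0.22 with all libraries. Calls kept or lost without a WT library thus rest mostly on a spread shared across genes, and they do not check the spread of each gene. It gave 785 to 884 genes higher and 812 to 887 lower by 2-fold. By the adjusted p, 2 members were higher in each case and 2 to 5 lower, with 5 without R111A replicate 1, where 38.4% of all genes were lower. That share was 19.4% without WT replicate 1, 19.3% without WT replicate 2 and 39.8% without R111A replicate 2, against 32.1% with all libraries. The log2 fold change ranged from -0.68 to -0.44 for Gata3 (adjusted p from 0.00379 to 0.122), from -0.69 to -0.016 for Ikzf2, from -0.42 to -0.26 for Maf and from -0.71 to -0.13 for Runx3. Of the 59 other genes that the rule for named genes takes and that were tested, 11 lost the adjusted p with no filter, among them Klf2 (adjusted p = 0.165), Tcf7 (0.173), Zfpm1 (0.152), Btla (0.0923), Rora (0.0753), Tox2 (0.0607) and Il17a (0.168), each without a change of value.

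The groups share replicate numbers in name only, since the labels say no more than sample 1 and 2. Deviations of libraries with the same number correlated at 0.111 across genes. With the replicate block, 841 genes were higher and 821 lower, and among the members only Runx3 changed its call (-0.42, adjusted p = 0.0316 from limma). The block gave all members tested nearly the same standard error, from 0.172 to 0.178, so its calls do not check the spread of each gene. For Runx3 the standard error was 0.175 with the block and 0.215 without it. In the lists, the block gave 6 higher cofactors and antagonists against 3 and 2 higher PRDM genes against 1, and Tyrobp was lower (adjusted p = 0.0292 from limma). In the Th1 list it gave 6 higher and 5 lower against 4 and 4. Higher genes numbered 6 against 5 in the cytotoxic list, 8 against 7 among naive-state factors and 4 against 3 in the Treg list. Lower genes numbered 6 against 5 in the Th17 list and 4 against 3 among the CD4+ T cell markers.

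Small changes in members below 10 FPKM, such as those of Gata3, Ikzf2 and Runx3, cannot be weighed by depth, because the read counts are not known.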
